A study of Mus musculus with 8 samples.

Results

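The genes described here are 44 mouse genes that cells use to copy their DNA and to divide, out of 52636 genes counted in the series. They were given by name, and all 44 were found in the count table by Ensembl identifier without its version. By role they form 3 groups, with 13 genes of the G1/S transition and S phase, 16 regulators of mitosis, and 15 genes of chromosomes, spindle and cytokinesis. They were counted in RNA from mesenchymal stem and progenitor cells (MSPCs) of the bone marrow, the stromal cells that make CXCL12 and stem cell factor for hematopoietic stem cells. The libraries came from 4 CTR mice (Flk2-cre+ Cxcr4fl/+) and 4 cKO mice (Flk2-cre+ Cxcr4fl/fl), all on a C57BL/6 background. The sample labels give an age of 6 weeks, and the methods give another age range for all mice. Both genotypes carry the Flk2-cre transgene, which sits on the Y chromosome and acts in multipotent progenitors and the blood cells that descend from them. Controls keep 1 intact Cxcr4 allele in those cells, and the MSPCs themselves are not targeted in either genotype. The sorted cells were CD45- Ter119- CD31- CD144- PDGFRα+ SCF-GFP+, so that both genotypes also carry a GFP reporter allele of Kitl. The labels do not name this allele. In the paper, cKO mice heterozygous for it had membrane-bound stem cell factor and hematopoietic stem cell numbers at control levels. Each library is from a single mouse, and the comparison asks whether MSPCs cycle differently when the progenitors around them lack CXCR4.

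Genes of the cell cycle are switched on in waves. E2F factors, held back by RB family proteins until cyclin E and CDK2 act, drive the S-phase wave that includes Pcna, the sliding clamp of the replication fork, and the ribonucleotide reductase subunits Rrm1 and Rrm2. The later wave holds the mitotic genes, among them Cdk1, its cyclins, Aurora and Polo-like kinases and kinesins, and is read from promoters with CCAAT boxes and cell cycle genes homology regions (CHR) that bind the DREAM and MYB-MuvB complexes with FOXM1. Most adult bone marrow MSPCs are regarded as slowly cycling, and in bulk RNA these genes are read as a measure of the cycling cells in a sort. Fewer cycling cells and less of these RNAs per cycling cell cannot be told apart in such data.

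Members of the 2 waves held different letters in their promoters, a property that the choice of the members did not use. Promoters from RefSeq on GRCm38.p6, spanning 250 bases before to 50 after a start, were at hand for 36 of the 44 genes (38 promoters). Ccne2, Gins2, Stmn1, Ccna2, Foxm1, Aurkb, Kif20a and Tpx2 had no entry. Both strands were searched for 3 motifs. CHR letters were taken as TTTGAA with the variant TTCGAA beside it. The box of NF-Y was taken as CCAAT in every promoter. E2F letters were taken as TTCCCGC with the variants TTCGCGC as well as TTGCCGC and finally TTGGCGC. CHR letters were found in 23 of 27 promoters of mitotic members (85.2%) and in 0 of 11 promoters of S-phase members, against 19.2% of all 32851 promoters of that length. CCAAT was found in 85.2% of the mitotic, 45.5% of the S-phase and 37.4% of all promoters. E2F letters showed the opposite order, with 54.5% of the S-phase, 14.8% of the mitotic and 9.57% of all promoters. CHR letters and CCAAT together were held by 77.8% of the mitotic promoters, 0% of the S-phase promoters and 7.52% of all. In 21 of the 23 mitotic promoters with CHR letters, the copy nearest the start lay within 50 bases of it, and in 13 it lay after the start. In a window of the 200 bases before the start, CHR letters were therefore held by 40.7% of the mitotic promoters and 13.4% of all. Matches of CHR and CCAAT shared a base in 1 of the members' promoters, as did matches of E2F letters and CCAAT. A match is a description of the letters and not a bound site.

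The 250 bases before the start are shown for 3 mitotic genes whose levels are given in every library below, and for Rrm1 as a promoter of the S-phase wave, with CHR letters in capitals in the first 3 and E2F letters in capitals in Rrm1. The first is Mki67 at chr7:135716380-135716629, minus strand, with 2 CHR matches and 1 E2F match. Top2a lies at chr11:99024190-99024439, minus strand, with 4 CHR matches and 6 CCAAT boxes. Cdk1 lies at chr10:69352913-69353162, minus strand, with 2 CHR matches and 2 E2F matches. The nearer CHR match begins 15 bases before the start. E2F matches of Mki67 and Cdk1 are left in lower case. Rrm1 lies at chr7:102441445-102441694, plus strand, with 1 E2F match that begins 67 bases before the start and no CHR match. Each is written in the direction of the gene.
Mki67: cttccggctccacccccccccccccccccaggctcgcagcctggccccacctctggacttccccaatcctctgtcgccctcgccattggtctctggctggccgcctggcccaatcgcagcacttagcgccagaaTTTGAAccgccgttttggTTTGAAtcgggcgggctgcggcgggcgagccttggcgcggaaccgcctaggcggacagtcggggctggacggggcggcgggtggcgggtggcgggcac
Top2a: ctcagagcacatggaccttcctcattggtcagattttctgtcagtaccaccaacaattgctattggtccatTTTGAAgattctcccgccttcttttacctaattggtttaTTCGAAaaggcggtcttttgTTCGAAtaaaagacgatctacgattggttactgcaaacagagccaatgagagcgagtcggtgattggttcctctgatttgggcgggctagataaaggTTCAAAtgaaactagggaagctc
Cdk1: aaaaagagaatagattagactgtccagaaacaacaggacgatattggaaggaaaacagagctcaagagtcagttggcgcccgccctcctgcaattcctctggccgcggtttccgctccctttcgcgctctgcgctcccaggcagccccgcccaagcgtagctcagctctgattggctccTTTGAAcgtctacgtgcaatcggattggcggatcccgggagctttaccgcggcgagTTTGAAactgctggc
Rrm1: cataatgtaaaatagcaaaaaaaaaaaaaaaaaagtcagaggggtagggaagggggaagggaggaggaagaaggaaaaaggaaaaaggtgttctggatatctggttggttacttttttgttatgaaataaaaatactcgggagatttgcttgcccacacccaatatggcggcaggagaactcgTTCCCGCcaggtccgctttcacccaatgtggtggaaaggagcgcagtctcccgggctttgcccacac

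The libraries held 31047344 to 38216877 counts on genes. Cxcr4, the gene deleted in blood progenitors, had 19, 14, 13 and 4 counts in the CTR libraries and 12, 7, 11 and 0 in the cKO libraries, and in these cells it does not check the genotype labels. Counts per 1000000 counts of a library (CPM, after TMM scaling of library sizes) of 8 MSPC markers summed to between 52916 and 65842 in all libraries, with Cxcl12 alone between 39694 and 50718. Markers of other cells were far lower in sum. They ranged over 10 to 21.7 CPM for 8 pan-hematopoietic genes, 6.05 to 16.0 for 9 endothelial genes, 0.0971 to 7.24 for 10 B cell genes, 82.9 to 301 for 10 erythroid genes and 32.3 to 151 for 10 granulocyte genes. The 7 hematopoietic progenitor genes summed to 90.1 to 172 CPM in CTR and 45.0 to 85.4 in cKO, with Cd34 at 0 in every library. The pan-hematopoietic sum averaged 14.8 CPM in CTR and 14.9 in cKO, and Ptprc reached at most 0.98 CPM. Which cells supplied the progenitor sum was not tested. The 7 plasma cell genes summed to 727 to 1064 CPM, and without Sdc1 the other 6 summed to 215 CPM in CTR3 and 0.162 to 5.21 in the remaining libraries. Of the lists, osteoblast genes (6, summed to 9838 to 15398 CPM) and chondrocyte genes (6, 55.3 to 117 CPM) are in part expressed by MSPCs. Acan, Matn3, Col9a1 and Tek were at 0 in every library. The part of any of these cells in the values below was not tested.

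The proliferation genes were scarce. Their 44 members together made up 0.024% to 0.0395% of all counts, and their summed level was 294, 390, 268 and 242 CPM in CTR1 to CTR4 and 306, 301, 265 and 309 CPM in cKO1 to cKO4. CTR2 stood highest and CTR4 lowest, so that both ends of the range were control mice and the cKO libraries lay between them. The CTR mean was 299 ± 64.3 CPM (SD, n = 4) and the cKO mean 295 ± 20.5 CPM (n = 4), which gives 0.989 for the ratio of cKO to CTR. The ratio lay between 0.930 and 1.10 when each library was left out in turn, the highest without CTR2. Rrm1, Pcna and Hmgb2 alone supplied 32.0% to 40.7% of the sum in a library, and without them the means were 191 ± 52.2 and 182 ± 17.5 CPM (n = 4 each).

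**Figure D1:**
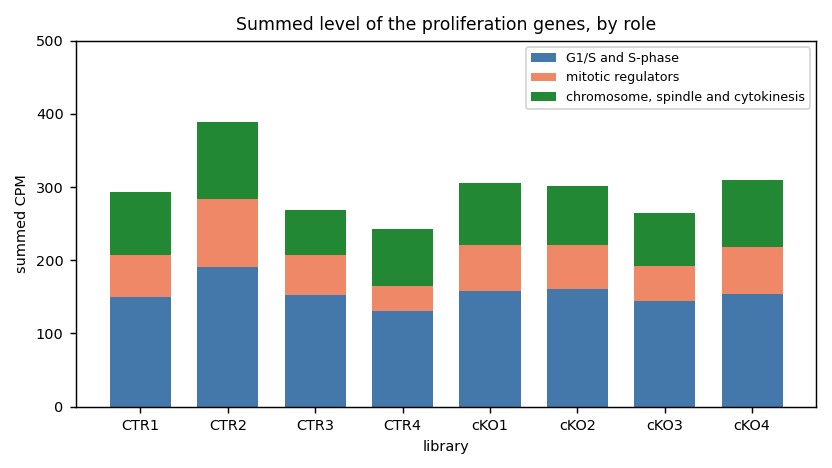
Summed CPM (bar height, from 0) of the proliferation genes in each of the 8 libraries, stacked by role. CTR2 reaches 390 CPM and CTR4 242 CPM, and the 4 cKO libraries lie between 265 and 309 CPM.

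By role, the same library stood highest in each of the 3 groups. S-phase members summed to 150, 191, 152 and 130 CPM in CTR and 158, 161, 144 and 154 CPM in cKO. Regulators of mitosis summed to 56.9, 92.2, 55.6 and 35.2 CPM in CTR and 62.8, 60.2, 47.8 and 64.0 CPM in cKO. Chromosome, spindle and cytokinesis genes summed to 86.8, 106, 61.0 and 77.2 CPM in CTR and 84.7, 79.6, 72.5 and 91.2 CPM in cKO. CTR2 was highest in all 3 groups, while CTR4 was lowest in the first 2 and CTR3 in the third. The ratios of cKO to CTR means were 0.992, 0.979 and 0.990. Gene by gene, among the 35 members without a 0 in any library, CTR2 was the highest library for 12 and CTR4 the lowest for 13. Over all genes tested, CTR2 was the highest library for 11.9% and CTR4 the lowest for 12.9%. Both libraries were picked by their sums over these same members, so that the counts by gene are not a separate result. These 2 libraries are both in the lower range of title numbers described below.

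Levels per length were low for nearly all members. In CPM per kilobase of annotated exon, which makes genes of different length comparable but counts every alternative exon, the median member stood at 0.884 against 4.58 over all genes tested, and 41 of the 44 members fell below the median of genes tested. The 44 include 9 members with a 0 in a library, which are not among the genes tested. These 9 stood at 0.0841 to 0.534 CPM per kb, so that the 2 medians are over unlike sets. The 3 members with the highest level per length were Pcna (15.7 CPM per kb), Hmgb2 (11) and Stmn1 (4.62). Pcna, at chromosome 2, 132249162 to 132253314, gave 39.4, 47.5, 34.8 and 30.8 CPM in CTR and 33.8, 35.4, 38.1 and 41.0 CPM in cKO. Hmgb2, a high mobility group protein of chromatin on chromosome 8, 57511907 to 57515999, gave 32.4, 35.7, 29.3 and 32.2 CPM in CTR and 31.5, 38.2, 31.1 and 34.6 CPM in cKO. For both genes the values of the genotypes overlapped. Stmn1, which encodes a protein that destabilizes microtubules and maps to chromosome 4, 134468320 to 134473843, gave 9.22, 10.7, 8.26 and 7.41 CPM in CTR and 11.2, 8.81, 7.87 and 7.54 CPM in cKO, and these overlapped too. At the other end stood Ttk, a spindle checkpoint kinase (0.0841 CPM per kb), and Cenpf, a kinetochore protein (0.0940). A mean below 10 CPM was found for 36 of the 44 members, and below 5 CPM for 29.

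**Figure D2:**
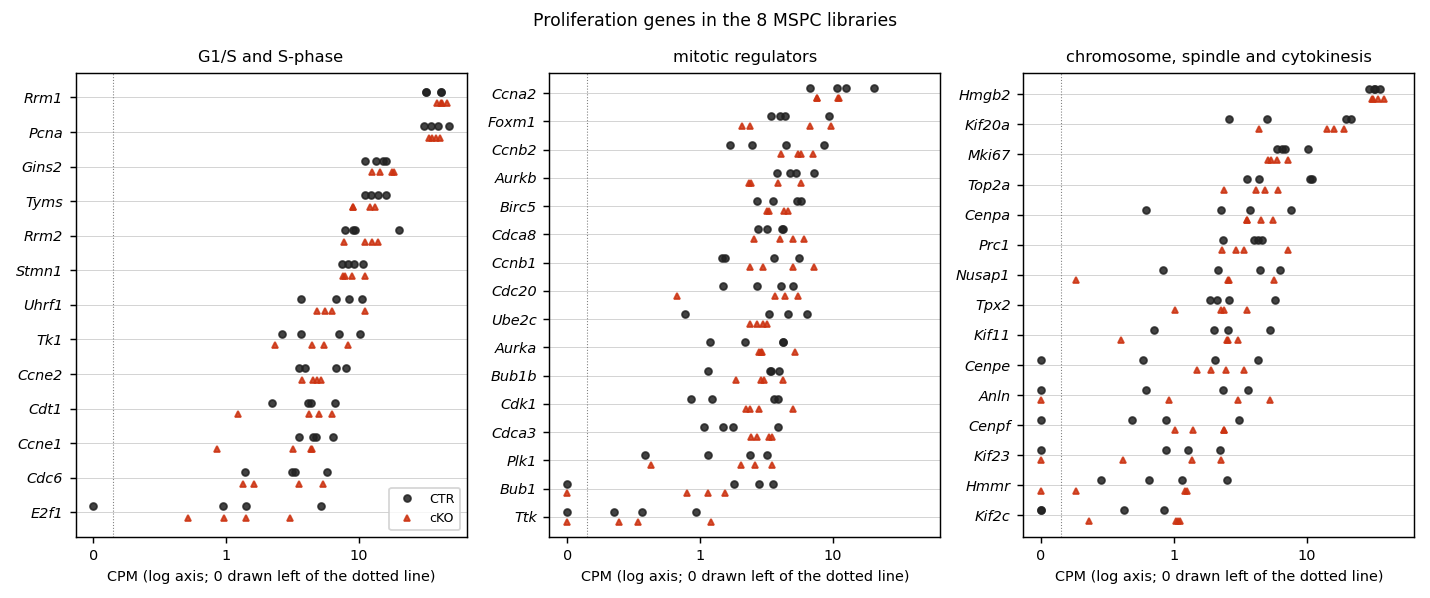
CPM on a log axis of each proliferation gene (rows, by role and mean level) in the 4 CTR (black circles) and 4 cKO (red triangles) libraries, with a value of 0 drawn left of the dotted line. Black and red points overlap in all 44 rows, and 9 genes have a library at 0.

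The 9 members with a 0 in at least 1 library were E2f1, the factor of the S-phase wave, the checkpoint kinases Ttk and Bub1, the kinetochore proteins Cenpe and Cenpf, the kinesins Kif23 and Kif2c, Hmmr, which binds spindle microtubules, and Anln, the anillin of the cleavage furrow. Zeros stood in both genotypes. CTR4 had 5 members at 0 and cKO1 had 4, while cKO2 and cKO4 had 0. A count of 0 allows up to 3 counts in a library, or 0.0785 to 0.0966 CPM at these depths, by counting error only. Other mice of the same genotype had levels well above that limit. Bub1 had 86, 115, 58 and 0 counts in CTR and 0, 40, 26 and 59 in cKO. Anln had 19, 118, 0 and 87 counts in CTR and 30, 106, 0 and 205 in cKO. Kif2c, a microtubule depolymerase, had 13, 0, 27 and 0 counts in CTR and 34, 8, 36 and 41 in cKO. All 9 overlapped between the genotypes, with at most 167 counts in a library for 8 of them and 205 for Anln.

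Spread between mice of one genotype was wide. The coefficient of variation within genotype had a median of 51.0% over the 44 members, against a median of 8.70% that counting error alone would give, and it was above the counting value for all 44. It was smallest for the abundant members Hmgb2 (9.02%), Rrm1 (11.5%) and Pcna (14.7%), and largest for Ttk (112%) and E2f1 (106%). Kif20a, a kinesin of cytokinesis, stood out for its level, with 64.3% at a mean above 10 CPM. The gene-wise biological coefficient of variation from edgeR was above the trend for genes of that level in 20 of the 35 members tested, with medians of 0.439 and 0.420.

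**Figure D3:**
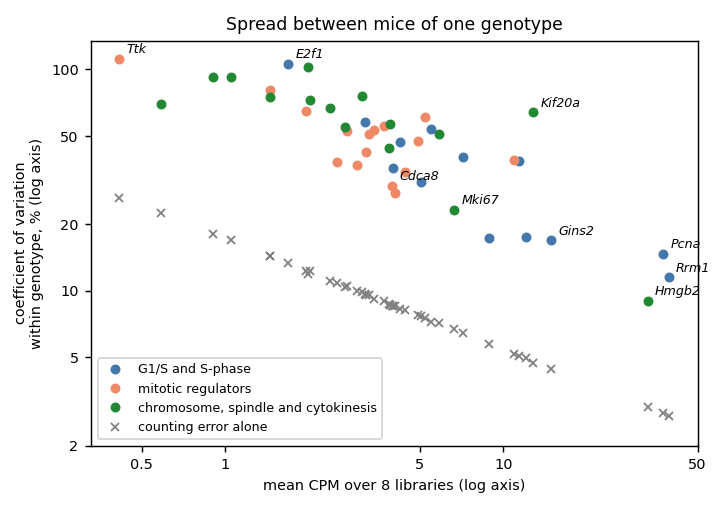
Coefficient of variation within genotype in percent (log axis) against mean CPM over the 8 libraries (log axis) for the 44 proliferation genes, colored by role, with the value from counting error alone as grey crosses. All colored points lie above the crosses, and the spread reaches from 9.02% for Hmgb2 to 112% for Ttk.

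To ask whether any member differed between genotypes, the 14598 genes with a count in every library were fitted together with edgeR's quasi-likelihood test, which took in 35 of the 44 members. After Benjamini-Hochberg adjustment 0 of these 35 passed the 0.05 threshold, as did 0 of all genes tested (0%), and all 35 had an adjusted p of 0.999. An unadjusted p under 0.05 was found for 0 members, against 646 genes or 4.43% of all tested (2.35% higher and 2.08% lower in cKO), and DESeq2's likelihood ratio test and limma-voom likewise gave 0 members on either measure. DESeq2 did call 22 of the 14598 genes (0.151%), and 47 (0.322%) with the title range described below as a term, none of them a member. The 2 genotypes overlapped in all 44 members. Of all genes tested 2.62% did not overlap (1.34% higher and 1.29% lower in cKO), and 0 of the 35 members tested is near that share. Log2 fold changes of cKO over CTR were above 0 for 15 members and below 0 for 20, beside 50.2% below 0 over all genes tested, with a median of -0.03 beside -0.001 over all genes tested. Median log2 fold changes by role were -0.07 for 12 S-phase members (2 above 0), 0.16 for 14 regulators of mitosis (9 above 0) and -0.31 for 9 chromosome, spindle and cytokinesis genes (4 above 0).

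These data bound the difference more closely for some members than for others. The 95% interval of the fold change lay within 2-fold in either direction for 12 of the 35 members, namely Gins2, Pcna, Rrm1, Rrm2, Tyms, Uhrf1, Stmn1, Bub1b, Birc5, Mki67, Hmgb2 and Prc1. For Rrm1 (log2 fold change 0.20, SE 0.13) the interval ran from 0.932- to 1.41-fold, for Pcna (-0.04, SE 0.15) from 0.773- to 1.22-fold, and for Hmgb2 (0.07, SE 0.12) from 0.866- to 1.26-fold. The interval was widest for Nusap1, a microtubule-binding protein of the spindle, from 0.228- to 2.86-fold. A 2-fold change could thus not be told from no change for the other 23 members tested.

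**Figure D4:**
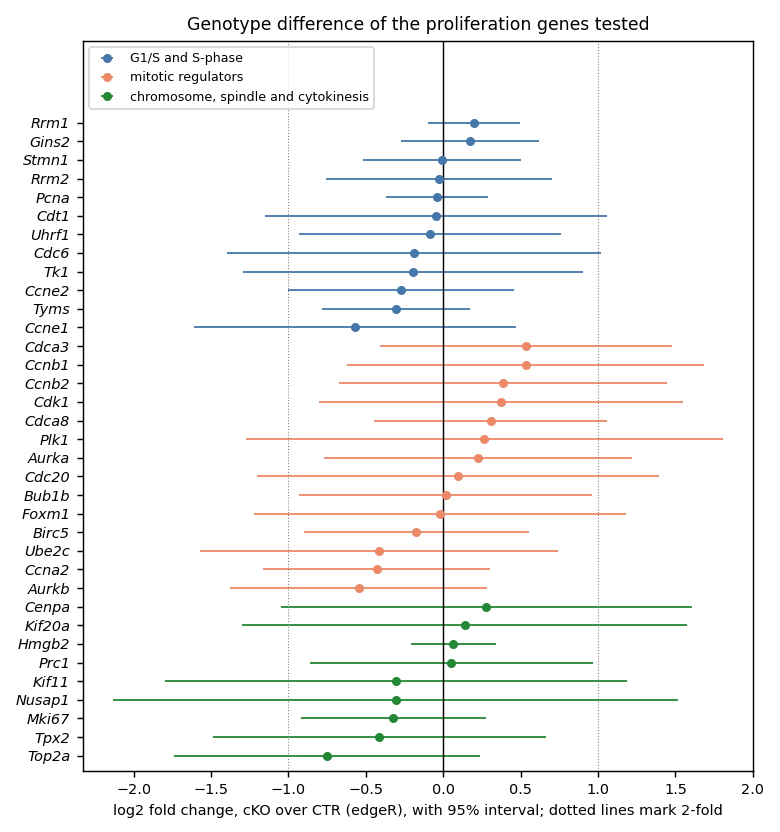
Log2 fold change of cKO over CTR (points) with its 95% interval (lines) from edgeR for the 35 proliferation genes tested, colored by role, with dotted lines at a 2-fold change. Every interval holds 0, and 12 of them stay between the dotted lines.

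Among S-phase members tested, Ccne1, the cyclin E that starts replication with CDK2, had the largest difference. It gave 3.56, 6.35, 4.5 and 4.71 CPM in CTR and 4.41, 4.39, 0.861 and 3.20 CPM in cKO (chromosome 7, 38097984 to 38107534). Its log2 fold change of -0.57 (SE 0.47, adjusted p = 0.999 from edgeR) came with a single low library, cKO3, and the other 3 cKO values lay within or just under the CTR range. Its relative Ccne2 (log2 fold change -0.27) and the replication licensing factors Cdc6 (-0.19) and Cdt1 (-0.05) had intervals that included 0. So did the nucleotide enzymes Rrm2 (-0.03), Tyms (-0.30) and Tk1 (-0.20), and Uhrf1, which brings the maintenance methyltransferase to replicated DNA (-0.08). Tyms had the smallest spread of these, at 13.3 ± 2.06 CPM in CTR and 10.8 ± 2.15 CPM in cKO (n = 4 each). Gins2, a subunit of the replicative helicase, had 14.0 ± 2.14 and 15.8 ± 2.84 CPM (n = 4 each), but 67.3% of its exon bases also lie in exons of Gse1 on the opposite strand. Whether counting used strand is not given in the sources used here, so that reads of the 2 genes cannot be told apart.

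Of the regulators of mitosis, 3 had the largest positive differences among the 35 members tested. Cdca3, which triggers mitotic entry (chromosome 6, 124829547 to 124833701), gave 1.07, 3.89, 1.77 and 1.5 CPM in CTR and 2.42, 3.48, 3.32 and 2.70 CPM in cKO. Every cKO library lay above 3 of the CTR libraries and below CTR2, for a log2 fold change of 0.53 (SE 0.42). The mitotic cyclin Ccnb1 (chromosome 13, 100778650 to 100786570) gave 3.59, 5.52, 1.55 and 1.47 CPM in CTR and 7.17, 5.02, 2.37 and 2.99 CPM in cKO, with a log2 fold change of 0.53 (SE 0.52). Ccnb2, its relative (chromosome 9, 70407692 to 70421547), gave 4.46, 8.55, 2.45 and 1.69 CPM in CTR and 7.04, 5.45, 4.09 and 5.80 CPM in cKO, with a log2 fold change of 0.38 (SE 0.48). For both cyclins CTR3 and CTR4 were the lowest libraries, and CTR2 lay above at least 3 of the cKO libraries. Without CTR2, 2 of 35 members had an unadjusted p under 0.05 from edgeR, beside 642 of all 14681 genes tested. They were Cdca3 and Ccnb2, and no member passed the adjusted threshold. For both genes CTR2 was the highest library, so that leaving it out widens the difference by itself. With CTR1, CTR3, cKO1, cKO2 or cKO3 left out, no member had an unadjusted p under 0.05 from edgeR. Cdk1, the catalytic partner of both cyclins, maps to chromosome 10, 69335146 to 69352938. It gave 3.85, 3.62, 1.24 and 0.856 CPM in CTR and 5.02, 2.20, 2.80 and 2.37 CPM in cKO. Its log2 fold change was 0.37 (SE 0.53). CTR1 and CTR2 lay above 3 of the cKO libraries, and CTR3 and CTR4 lay below all 4.

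Aurkb, the kinase of the chromosomal passenger complex (chromosome 11, 69045647 to 69051664), went the other way in its mean. It gave 5.24, 7.23, 4.72 and 3.83 CPM in CTR and 3.86, 2.34, 2.43 and 5.75 CPM in cKO, with a log2 fold change of -0.55 (SE 0.37). The cKO4 value exceeded those of 3 CTR libraries. Without cKO4, Aurkb alone of 35 members had an unadjusted p under 0.05 from edgeR, beside 695 of all 14681 genes tested. The library left out held the highest cKO value of Aurkb, so that leaving it out widens the difference by itself. Of the other subunits of the same complex, Birc5 (survivin) had a log2 fold change of -0.17 and Cdca8 (borealin) one of 0.31. The remaining regulators tested, Ccna2 (-0.43), Ube2c (-0.42), Foxm1 (-0.02), Bub1b (0.02), Cdc20 (0.09), Aurka (0.23) and Plk1 (0.27), had standard errors between 0.33 and 0.69.

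Mki67, which encodes the proliferation marker Ki-67 (chromosome 7, 135689784 to 135716361), gave 10.3, 6.81, 6.46 and 6.02 CPM in CTR and 7.23, 5.99, 5.38 and 5.07 CPM in cKO. The means were 7.40 ± 1.97 and 5.92 ± 0.953 CPM (SD, n = 4 each), for a log2 fold change of -0.32 (SE 0.27, adjusted p = 0.999 from edgeR). CTR1 was the highest library, and cKO1 lay above the other 3 CTR libraries. Top2a, the topoisomerase that untangles replicated chromosomes (chromosome 11, 98992943 to 99024189), had the largest difference of all 35 members. It gave 10.6, 10.9, 4.38 and 3.56 CPM in CTR and 4.87, 6.10, 2.37 and 4.14 CPM in cKO, with a log2 fold change of -0.75 (SE 0.45, unadjusted p = 0.122, adjusted p = 0.999 from edgeR). CTR1 and CTR2 lay above every other library, while CTR3 and CTR4 lay among the cKO values. Without CTR4, Top2a alone of 36 members had an unadjusted p under 0.05 from edgeR, beside 629 of all 14731 genes tested. The library left out held the lowest CTR value of Top2a, so that leaving it out widens the difference by itself. Mki67 and Top2a both carry CHR letters in the promoters shown above, as does Cdk1, whose difference had the opposite sign. Kinesins and spindle proteins varied in both directions, from -0.41 for Tpx2, which activates Aurora A at the spindle, to 0.28 for the centromeric histone Cenpa, with standard errors of 0.41 to 0.82 for Tpx2, Kif11, Nusap1, Prc1, Kif20a and Cenpa.

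Titles of the samples carry a number whose meaning is not stated, and the numbers fall into 26 to 32 (CTR2, CTR4, cKO2 and cKO4) and 67 to 86 (CTR1, CTR3, cKO1 and cKO3). Each range holds 2 libraries of each genotype, so that the genotypes can be compared within a range as a difference of mean log2 CPM. The difference had the same sign in both ranges for 22 of the 35 members, above 0 for 10 and below 0 for 12. The share over all genes tested is not given here, so this count is a description only. Cdca3 (0.33 within 26 to 32 and 1.01 within 67 to 86), Ccnb1 (0.43 and 0.79), Ccnb2 (0.55 and 0.69) and Cdk1 (0.35 and 0.76) were above 0 in both. Top2a (-0.31 and -1.0), Aurkb (-0.51 and -0.69), Ccne1 (-0.54 and -1.0) and Mki67 (-0.21 and -0.39) were below 0 in both. Of these genes, all but Cdk1 and Mki67 were named for large differences over the same libraries. Equal signs in both ranges were thus in part set in advance and are no replication. Kif11, the motor that pushes spindle poles apart, had 1.17 and -1.78.

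**Figure D5:**
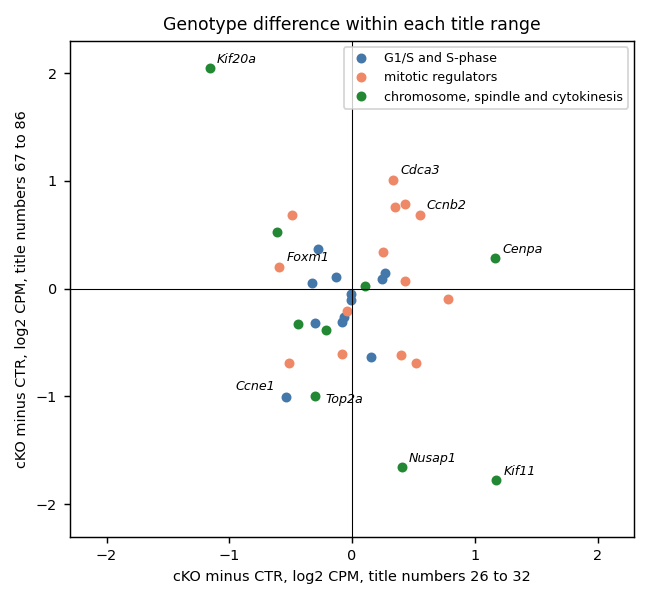
Difference of mean log2 CPM between cKO and CTR within title numbers 26 to 32 (horizontal axis) and within 67 to 86 (vertical axis) for the 35 proliferation genes tested, colored by role. Of these, 10 lie above 0 on both axes and 12 below 0 on both, and Kif20a lies at the upper left at -1.16 and 2.04.

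Between the ranges themselves, edgeR with genotype in the model called 0 of the 35 members, against 2 of all genes tested (0.0137%). An unadjusted p under 0.05 was reached by 1 member, Tk1, beside 11.6% of all genes tested. Tk1, the thymidine kinase of the salvage pathway, was chosen here after its values were seen. It gave 7.02, 10.2, 5.50 and 8.22 CPM in CTR2, CTR4, cKO2 and cKO4, and 3.66, 2.64, 2.33 and 4.46 CPM in CTR1, CTR3, cKO1 and cKO3. The ranges did not overlap, with a log2 fold change of -1.23 (SE 0.33, unadjusted p = 0.00475, adjusted p = 0.235 from edgeR) for 67 to 86 over 26 to 32. Of the 44 members 3 did not overlap between the ranges, Tk1, Cenpe and Anln, beside 6.87% of all genes tested. The last 2 were likewise named after their values were seen. Cenpe, the kinesin that aligns chromosomes, was higher in the range 67 to 86 (2.05 to 4.27 CPM against 0 to 1.91). Anln was lower there (0 to 0.919 CPM against 2.33 to 5.33). The sum over all members averaged 311 CPM in the range 26 to 32 and 283 CPM in the range 67 to 86, and erythroid markers averaged 153 and 233 CPM.

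An interaction of genotype with the title range was called for 0 members and 0% of all genes tested. An unadjusted p under 0.05 was found for 1 member, Kif20a, beside 3.44% of all genes tested. Kif20a was chosen here after its values were seen. It gave 19.8 and 21.4 CPM in CTR2 and CTR4 against 4.39 and 19.2 CPM in cKO2 and cKO4, and 5.01 and 2.61 CPM in CTR1 and CTR3 against 16.1 and 14.2 CPM in cKO1 and cKO3. Both cKO libraries were thus below both CTR libraries in one range and above them in the other (interaction 2.79 on the log2 scale, unadjusted p = 0.0130, adjusted p = 1.00 from edgeR). Exons of Cdc23 on the opposite strand share 29.3% of the exon bases of Kif20a. Cdc23, a subunit of the anaphase-promoting complex, ranged over 70.7 to 102 CPM. Whether its reads enter the values of Kif20a was not tested.

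Exons shared with another gene concerned 4 more members above 10% of their exon bases. They were Ube2c with Tnnc2 (22.8%), Ccne2 with Ints8 (17.4%), Ccna2 with Exosc9 (12.5%) and Prc1 with Rccd1 (11.1%). Tnnc2, a troponin of fast muscle, had at most 5 counts in a library, whereas Ints8 ranged from 38.2 to 62.7 CPM, above the 3.54 to 7.93 CPM of Ccne2. Pseudogenes that match at least 20% of a member's transcript at 90% identity or more were annotated for 12 members, Pcna, Hmgb2, Ccnb1 and Plk1 among them. Where they were listed in the table, they took 0 to 27 counts in a library. The highest value, for Plk-ps1, compares with 12 to 113 counts of Plk1, and Pcna had 1102 to 1577 counts beside 10 to 21 of Pcna-ps2. Counts on a pseudogene do not show how many reads a member lost or gained. The size of that effect was not tested.

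Other genes of the same pathways were taken from lists that were chosen with earlier results of these data known. Of these genes 0 passed the adjusted threshold between genotypes. Of 61 other G2/M genes 36 were tested, with 0 called, 0 at an unadjusted p under 0.05 and a median log2 fold change of -0.03. The smallest p-values among them were those of Ccnf, an F-box cyclin (1.09 ± 0.414 CPM in CTR and 1.89 ± 0.740 in cKO), and Cks2, a CDK-binding subunit (3.55 ± 1.91 and 1.83 ± 0.431 CPM, n = 4 each). Of 50 other S-phase genes 42 were tested, with 0 called and a median log2 fold change of 0.06. Usp1, a deubiquitinase of PCNA (21.8 ± 1.77 CPM in CTR and 28.0 ± 3.43 in cKO, n = 4 each), had an unadjusted p under 0.05 on the higher side, where 2.35% of all genes tested had one. Its genotypes did not overlap (20 to 24.1 CPM in CTR and 24.4 to 31.9 in cKO), beside 1.34% of all genes tested on that side.

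The 6 MCM genes encode the ring of the replicative helicase, and 0 were called. Mcm6 ranged from 17.0 to 38.5 CPM in CTR and from 11.3 to 16.8 CPM in cKO, without overlap (log2 fold change -1.10, SE 0.26, unadjusted p = 0.00177, adjusted p = 0.999 from edgeR). On the lower side 2.08% of all genes tested had an unadjusted p under 0.05, and 1.29% did not overlap. Of the same ring, Mcm2 had a log2 fold change of 0.06, Mcm3 of -0.11 and Mcm7 of 0.17, and the median over the 6 was -0.01. Among 26 genes of G1, RB, E2F and DREAM, 23 were tested and 0 called, with a median log2 fold change of -0.05. Rb1, the retinoblastoma protein that restrains E2F (25.7 ± 5.24 CPM in CTR and 33.3 ± 2.03 in cKO, n = 4 each), and Fzr1, which directs the anaphase-promoting complex in G1 (52.4 ± 2.94 and 60.9 ± 3.75 CPM, n = 4 each), had an unadjusted p under 0.05 on the higher side, beside 2.35% of all genes tested. The genotypes of Fzr1 did not overlap (49.2 to 55.2 CPM in CTR and 56.4 to 64.5 in cKO), and 1.34% of all genes tested did not on that side.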

How the data were processed

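RNA of sorted MSPCs from 4 CTR and 4 cKO mice was sequenced as paired reads. According to the methods and the submitters' processing notes, the authors aligned the reads to GRCm38 (mm10) with HISAT2, counted them with HTSeq-count on GENCODE genes, and deposited raw counts per gene, without normalization. Strandedness of the counting is not given in the sources used here. The notes give no versions.

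Of 52636 genes, 52403 were matched to a symbol. Genes with a count above 0 in all 8 libraries were tested with edgeR 4.0.16 (TMM, glmQLFit and glmQLFTest, Benjamini-Hochberg, threshold 0.05) in R 4.3.3, without covariates. A standard error is the size of the log2 fold change divided by the root of F. The title range and its interaction with genotype were tested in models with genotype. CPM are counts per 1000000 of TMM-scaled library size, and levels per kb use the union of GENCODE M21 exons, another release than the authors'. Genotype came from the labels. Intervals within one library cover counting error only, and the libraries' total counts of 31047344 to 38216877 set it. Outlying libraries were sought by Dixon's ratio. Alternatives were median-ratio and upper quartile scaling, 3 other filters, DESeq2 1.42.0 (likelihood ratio test, with and without the title range; the methods name a batch that the labels do not), limma-voom (limma 3.58.1), the title range or the replicate number as a term, and each library left out in turn. The edgeR script was tested on simulated data.

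The members and lists were chosen with earlier results of these data known. Values per library are given by rule for Mki67, Top2a, Cdk1 and Pcna, for the 3 members with the highest level per length, and for the 3 largest differences in each direction. Other pathway genes named are those with the smallest p in each direction. Bub1, Anln, Kif2c, Cenpe, Tk1, Kif20a and the genes of the closing observations were named after their values were seen. Same-numbered replicates were not treated as pairs in the main test, although 7 libraries correlated best with their own number. The title numbers of replicates 1 to 4 are 78, 32, 71 and 27 in CTR and 86, 31, 67 and 26 in cKO. Some genes of the lists are not reported here by name.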

Additional observations from a re-analysis of the deposited data

Results flagged for a closer look

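In 96 groups of 4 libraries (each member and summed level in each genotype), 5 held a library set apart from the other 3 by Dixon's ratio, where chance would give about 4.8. Aurka, the kinase of the spindle poles, was at 5.20 CPM in cKO4 and at 2.80 to 2.91 CPM in the other cKO libraries (ratio 0.938). Bub1 was at 0 in CTR4 and at 1.80 to 3.53 CPM in the other CTR libraries (ratio 0.840). Bub1b was at 1.15 CPM in CTR3 and at 3.34 to 3.91 CPM in the others (ratio 0.869). Kif11 was at 0.398 CPM in cKO1 and at 2.52 to 3.02 CPM in the others (ratio 0.907). Kif2c was at 0.228 CPM in cKO2 and at 1.04 to 1.11 CPM in the others (ratio 0.959). The 5 cases fell in 5 different libraries, and none was an S-phase gene.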

How the results depend on the processing

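Under all 18 alternative fits of the genotype and all 14 of the title range, 0 proliferation genes passed the adjusted threshold. The number of all genes past it, 0 in the report, was 1 with each of the filters filterByExpr, no filter and a mean of at least 10 counts, 22 with DESeq2's likelihood ratio test and 47 with DESeq2 and the title range. The cause was not tested. The median log2 fold change of the members was between -0.103 and 0.088 without a library, and above 0 without CTR2 (0.088) or cKO3 (0.038). Same-numbered replicates had correlations of 0.131, 0.176, 0.0844 and 0.0572, under 0.1 for 2 pairs, and 7 of 8 libraries correlated best with their own number. With the replicate number as a block, 0 members and 0 of all genes were called, 812 genes instead of 646 had an unadjusted p under 0.05, and the median was -0.040. In the window of 200 bases, CHR letters stood in 40.7% and CHR letters with CCAAT in 37.0% of the mitotic promoters, against 85.2% and 77.8%.

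Of 630 single-gene values under an alternative, 52 had the opposite sign, in 18 genes, none of them called. Rrm2 was at 0.001 with DESeq2 and the title range, 0.042 with limma-voom, 0.002 with the title range and 0.045 with the replicate block. In the same order Cdc20 was at -0.002, -0.093, -0.000 and -0.012. Foxm1 was at 0.018 with DESeq2 and the title range and 0.019 with the title range. Prc1 was at -0.055 with limma-voom and -0.040 with the replicate block. With a library left out, log2 fold changes ran from -0.648 to 0.190 for Cdc6, -0.312 to 0.253 for Cdt1, -0.132 to 0.077 for Pcna, -0.174 to 0.368 for Rrm2, -0.520 to 0.208 for Tk1 and -0.403 to 0.147 for Uhrf1. They ran from -0.145 to 0.088 for Stmn1, -0.505 to 0.394 for Foxm1, -0.071 to 0.707 for Plk1, -0.043 to 0.450 for Aurka, -0.256 to 0.187 for Bub1b and -0.198 to 0.438 for Cdc20. For the others they ran from -0.075 to 0.965 for Cenpa, -0.625 to 0.268 for Kif11, -0.198 to 0.558 for Kif20a, -0.704 to 0.071 for Tpx2, -0.937 to 0.162 for Nusap1 and -0.411 to 0.237 for Prc1. The 17 other members tested kept their sign. A count of 0 in a library left 9 members out of the test.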

Other observations

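Of 3 inhibitors of cyclin-dependent kinases, which hold cells out of the cycle, 2 were more abundant than any proliferation gene. Cdkn1a (p21) gave 61.3, 172, 114 and 41.0 CPM in CTR and 180, 148, 89.2 and 79.8 CPM in cKO, with the lowest value in CTR4. Its log2 fold change was 0.35 (SE 0.42, adjusted p = 0.999 from edgeR). Cdkn1c (p57) gave 117, 91.1, 111 and 141 CPM in CTR and 155, 101, 157 and 126 CPM in cKO, with a log2 fold change of 0.23 (SE 0.17). Cdkn1b (p27) ranged from 7.66 to 22.6 CPM, with a log2 fold change of -0.09 (SE 0.36). Per kilobase of exon, Cdkn1c (61.3 CPM) and Cdkn1a (31.1 CPM) stood above every proliferation gene, of which Pcna was highest at 15.7 CPM.

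Of the D cyclins, which open G1 with CDK4 and CDK6, Ccnd2 (7.73 CPM per kb) and Ccnd3 (6.19) stood above Ccnd1 (0.713). Ccnd3 gave 70.7, 51.3, 99.8 and 30.5 CPM in CTR against 42.1, 48.8, 45.3 and 46.3 CPM in cKO (log2 fold change -0.47, SE 0.29, adjusted p = 0.999 from edgeR). Cdk4 was at 179 to 273 CPM in all libraries and Cdk6 at 18.1 to 31.5 CPM. None of these genes passed the adjusted threshold between genotypes.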
